A study of Mus musculus with 6 samples.

Results

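The 10 genes described here are imprinted growth genes: Igf2, Dlk1, Peg3, Mest, Plagl1 and Ndn, which are expressed from the paternal allele, and H19, Meg3, Cdkn1c and Grb10, which are expressed from the maternal allele (Grb10 outside the brain). They were chosen by name and matched by symbol to the mouse Ensembl identifiers of the deposited table, where all 10 were found among 54532 genes. The RNA came from eYFP-positive cells that were sorted from dissociated livers of CD-1 mouse embryos of genotype Sm22-Cre/ROSA26RYFP, with libraries A, B and C from embryonic day 16 (E16, 3 libraries) and again from embryonic day 18 (E18, 3 libraries). All 6 libraries share the Cre and the reporter. Cre is expressed from the promoter of Sm22 (Tagln), a smooth muscle gene, and turns on eYFP for good, so a sorted cell or its ancestor once expressed Cre. Whether libraries of the same age came from separate embryos, litters or pools is not stated in the labels, so p-values speak only of the variation among these libraries and it may be technical.

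At an imprinted gene, 1 of the parental alleles is silenced by marks laid down in the egg or the sperm, most often DNA methylation. Imprinted genes lie in clusters, where a methylated control region can set the expression of several neighbours, and paternally expressed members often promote fetal growth while maternally expressed ones often restrain it. Many of them are abundant in the fetal liver and are turned down after birth. The deposited values do not separate the alleles, so what follows concerns total transcript levels and not imprinting itself.

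Values are TPM, a transcript abundance normalized by length and scaled to the same total in each library, so levels can be compared between genes. TPM times exon length gave whole reads within 0.05 of a read for 96.8% to 97.1% of values above 0, and so recovered 21130206 to 22626881 reads per library at E16 and 14587555 to 18281952 at E18. All 10 genes had at least 1 TPM in each library. The labelled cell type was checked against marker lists. Of 12 mesenchyme markers (fibrillar collagens, collagen VI, Pdgfra, Pdgfrb, Dcn, Lum, Vim), all 12 were called higher at E18, and their summed TPM was 470 to 889 at E16 and 2592 to 6647 at E18. Of 12 hepatoblast and hepatocyte markers, 6 were called lower and 0 higher, with sums of 2192 to 9146 and 386 to 1007 TPM. Erythroid sums were 5338 to 7184 and 10752 to 18748 TPM, with 1 of 11 tested markers called higher. Macrophage markers summed to 43.0 to 57.5 TPM at E16 and 45.7 to 116 TPM at E18, most of it from Cd68. Of 3 tested, Lyz2 was called higher (0.445 to 1.88 and 4.82 to 8.53 TPM), whereas Adgre1, C1qa, C1qb and Cd14 are listed at 0 in each library and the leukocyte marker Ptprc rested on 0 to 17 reads. Smooth muscle markers summed to 31.0 to 84.1 and 271 to 570 TPM (8 of 10 called higher), stellate cell markers to 22.5 to 53.0 and 112 to 366 TPM (4 of 10 called higher), and endothelial markers, 2 of 10 tested and 0 called, to 32.7 to 50.3 and 25.6 to 34.8 TPM. Of 9 mesothelial markers, 4 were called higher (Msln, Upk3b, Lrrn4 and Krt19), with sums of 191 to 223 and 201 to 273 TPM. Podxl alone stood at 132 to 174 and 93.6 to 186 TPM. Log2 fold changes were above 0 in 6 of the 9, and below 0 in Krt18 (−2.09), Krt8 (−1.08) and Podxl (−0.25). Krt18 was lower in every E18 library. Megakaryocyte markers, 4 of 6 tested and 0 called, summed to 22.4 to 61.4 and 33.1 to 109.6 TPM, and cholangiocyte markers to 10.4 to 21.7 and 21.3 to 37.4 TPM, with Krt19, which is on both lists, called higher among 3 tested. E18 replicate B stood apart with the highest mesenchyme sum and E16 replicate B with the highest hepatoblast and hepatocyte sum. What part these cell types have in the values of the growth genes was not tested. Tagln itself stood at 0.606 to 1.40 TPM at E16 and 2.86 to 3.37 at E18, on 8 to 37 reads. Exons on the opposite strand cover 67.9% of the Tagln exon length. The strand setting of the counting is not given in the sources used here, so this level may not measure the whole gene.

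H19 was the most abundant of the 10, followed by Dlk1, Grb10, Plagl1, Peg3, Meg3, Mest, Cdkn1c, Ndn and Igf2, in the order of the mean TPM over the 6 libraries. In that order H19 and Dlk1 did not overlap in library values on either day, nor did Cdkn1c and Ndn. Grb10 and Plagl1, and likewise Peg3 and Meg3, were apart at E16 and overlapped at E18, and Ndn and Igf2 overlapped at E16 and were apart at E18. The other neighbouring pairs overlapped on both days. The means change places by day. At E16 mean Grb10 (119 TPM) was above Dlk1 (77.7 TPM), and Cdkn1c (21.7 TPM) was above Meg3 (21.1 TPM) and Mest (14.6 TPM). At E18 mean Plagl1 (177 TPM) was above Grb10 (127 TPM). Mean H19 lay above 99.1% of the 17824 genes tested at E16 and above 99.4% at E18, whereas Mest moved from above 60.6% to above 91.1% of them.

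**Figure D1:**
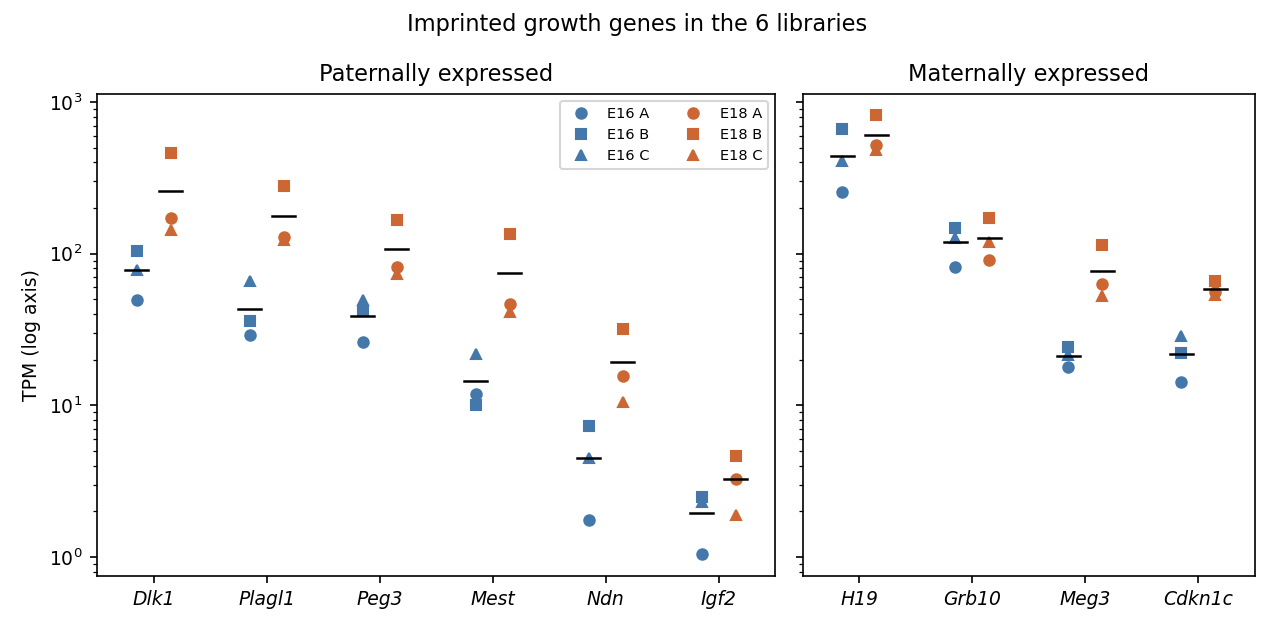
TPM of each gene in each library on a log axis, paternally expressed genes at left and maternally expressed genes at right; point shape gives the library letter, colour the day, and the black line the mean of 3 libraries. In 7 genes all E18 points lie above all E16 points, and in Igf2, H19 and Grb10 the days overlap.

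Setting E18 against E16 addressed which of these growth genes differ with age, and whether paternally and maternally expressed genes move alike. It used limma on log2(TPM + 1) over all 17824 genes with at least 1 TPM in at least 3 libraries, with Benjamini-Hochberg adjusted p under 0.05 as a call. Plagl1, Meg3 and Cdkn1c rose. In 7 of the 10 genes, 5 paternally and 2 maternally expressed, every E18 library lay above every E16 library, a pattern held by 18.4% of all genes tested, and in 0 of the 10 every E18 library lay below, as in 8.05% of all genes. All 10 fold changes were above 0, as were 57.0% of those of all genes. Calls numbered 3 of 10, all higher, against 3.47% of all genes called in either direction, 3.08% of all genes called higher and 0.387% called lower. The median log2 fold change was 1.74 for the 6 paternally expressed genes, from 0.52 to 2.13, and 0.98 for the 4 maternally expressed genes, from 0.09 to 1.74, beside 0.07 for all genes tested. The 3 calls did not hold when single libraries were left out. Members called fell to 1 (Meg3) without E18 replicate C and to 0 without any 1 of the other 5 libraries, while calls over all genes went from 618 to 664, to 55 without E16 replicate B and to 0 in the other 4 fits. By voom on recovered reads, 7 of the 10 were called higher (Plagl1, Mest, Dlk1, Peg3, Ndn, Meg3 and Cdkn1c), against 7.25% of all genes.

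Among the paternally expressed genes, Plagl1, a zinc finger transcription factor that slows the cell cycle and regulates other imprinted genes (mm10 chromosome 10, 13060504 to 13131694), stood at 28.9, 35.8 and 65.7 TPM at E16 (libraries A, B and C, in this order throughout) and at 130, 280.3 and 122.5 TPM at E18. The days did not overlap, and E18 replicate B was more than any other library. Plagl1 rose by 1.98 ± 0.40 on the log2 scale (SE; limma adjusted p = 0.0473), from 43.5 ± 19.6 to 177 ± 89.1 TPM (SD, n = 3 each). The rise of Plagl1 was the least firm of the 3 calls, since it kept its call in 3 of 21 alternative analyses.

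Mest, which encodes a protein of the alpha/beta hydrolase fold and is also called Peg1 (mm10 chromosome 6, 30723547 to 30748465), had the largest fold change of the 10 genes but did not pass. Its values were 12.0, 10.04 and 21.7 TPM at E16 and 46.7, 135 and 41.1 TPM at E18, without overlap, and the log2 fold change was 2.13 ± 0.48 (limma adjusted p = 0.0581). Exons of Copg2 on the opposite strand cover 23.1% of the Mest exon length, and the strand setting of the counting is not given in the sources used here.

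An intron of Mest holds the hairpin of miR-335, whose own entry in the table rose. The mature strands of miR-335 are shown because this is the 1 hosted miRNA whose entry passed the low-value filter, and those of miR-675, which H19 carries in an exon, are shown for comparison. They are RefSeq sequences (GRCm38.p6), with the seed, bases 2 to 8, in capitals.
miR-335-5p: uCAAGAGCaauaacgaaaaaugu
miR-335-3p: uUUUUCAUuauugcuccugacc
miR-675-5p: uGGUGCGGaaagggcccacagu
miR-675-3p: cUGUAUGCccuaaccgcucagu
The 4 seeds differ from each other. The Mir335 hairpin (chromosome 6, 30741299 to 30741396, mm10) rested on 5, 0 and 1 reads at E16 and on 14, 28 and 22 reads at E18, and the days did not overlap. On the log2(TPM + 1) scale the entry rose by 3.99 ± 0.72 (limma adjusted p = 0.0383), a call made on few reads. Mir675 is listed at 0 in each library, beside 4281 to 10928 reads for H19 (mm10 chromosome 7, 142575529 to 142578143). Mir675 lies in an H19 exon on the same strand, and how the counting treated reads in shared exons is not given in the sources used here. Its value of 0 may therefore not measure the hairpin, and the entries of Mir675 and Mir335 cannot be compared. The libraries were made from total RNA with a stranded total RNA kit, so reads over a hairpin need not come from the mature miRNA.

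Dlk1, a transmembrane EGF-repeat protein that blocks differentiation of precursor cells and is widely used as a surface marker of hepatoblasts (mm10 chromosome 12, 109452823 to 109463336), stood at 49.7, 105 and 78.6 TPM at E16 and at 173, 462 and 144 TPM at E18. All E18 libraries were above all E16 libraries, and E18 replicate B was far above the rest. The log2 fold change of Dlk1 was 1.59 ± 0.46 and missed the threshold (limma, adjusted p = 0.105). The hepatoblast and hepatocyte markers went the other way on these days, Afp falling by 3.48 on the log2 scale (limma adjusted p = 0.0359). The highest Dlk1 value at E16 was in replicate B, which also had the highest hepatoblast and hepatocyte sum, 9146 TPM. That library was the highest of its day for 6 of the 10 genes, Dlk1 among them. Which cells the Dlk1 RNA came from was not tested.

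Peg3, a zinc finger protein with roles in growth and maternal behaviour (mm10 chromosome 7, 6703892 to 6730431), had 26.4, 41.7 and 49.2 TPM at E16 and 82.0, 167 and 73.6 TPM at E18. Its days did not overlap, and its log2 fold change of 1.38 ± 0.35 did not pass (limma adjusted p = 0.0769). Ndn encodes necdin, a MAGE family protein that restrains proliferation of precursor cells and lies in the mouse counterpart of the Prader-Willi region (mm10 chromosome 7, 62346569 to 62350262). It had 1.74, 7.30 and 4.51 TPM at E16 and 15.7, 32.0 and 10.4 TPM at E18. These values did not overlap but rest on 44 to 541 reads, and the log2 fold change of 1.88 ± 0.52 did not pass (limma adjusted p = 0.0916).

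Igf2, the fetal growth factor of the insulin family (mm10 chromosome 7, 142650766 to 142666816), was the lowest of the 10, at 1.05, 2.50 and 2.29 TPM at E16 and 3.25, 4.63 and 1.90 TPM at E18. The days overlapped, and the log2 fold change was 0.52 ± 0.39 (limma adjusted p = 0.521). These values rest on 41 to 121 reads and may not measure the gene as a whole. In GENCODE M21, exons of the same-strand gene Gm49394 cover 62.8% of the Igf2 exon length, its long last exon included, and Gm49394 is listed at 0 in each library. How the counting treated reads in shared exons is not given in the sources used here, so the level of Igf2 relative to the other 9 genes is uncertain.

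Among the maternally expressed genes, Meg3 and Cdkn1c rose, and H19 and Grb10 had overlapping days. Meg3, a long noncoding RNA with growth-restraining activity (mm10 chromosome 12, 109541001 to 109571726), stood at 18.0, 24.1 and 21.3 TPM at E16 and at 62.7, 115 and 52.5 TPM at E18. Each E18 library was more than any E16 library, and the E16 values lay close together. Meg3 rose by 1.74 ± 0.29 on the log2 scale (limma adjusted p = 0.0353), from 21.1 ± 3.05 to 76.6 ± 33.4 TPM (SD, n = 3 each), and kept its call in 11 of 21 alternative analyses.

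Cdkn1c, also called p57Kip2, is an inhibitor of cyclin-dependent kinases (mm10 chromosome 7, 143458339 to 143461050). It had 14.2, 22.2 and 28.8 TPM at E16 and 55.8, 66.5 and 53.3 TPM at E18. The E18 libraries lay close together and apart from those of E16, with less difference between E18 replicate B and the others than in any other gene that did not overlap. Cdkn1c rose by 1.44 ± 0.25 (limma adjusted p = 0.0375), from 21.7 ± 7.29 to 58.6 ± 7.01 TPM (SD, n = 3 each), and kept its call in 9 of 21 alternative analyses. Exons of the antisense gene Gm44732 cover 30.65% of the Cdkn1c exon length, and Gm44732 is listed at 0 in each library. How the counting treated strand and shared exons is not given, so this 0 does not settle whether Cdkn1c lost reads.

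H19, a long noncoding RNA next to Igf2, stood at 255, 669 and 410 TPM at E16 and at 524, 817 and 481 TPM at E18. The days overlapped because E16 replicate B was above E18 replicates A and C, and the log2 fold change was 0.52 ± 0.37 (limma adjusted p = 0.503). Grb10, an adaptor that binds insulin and IGF1 receptors and restrains growth (mm10 chromosome 11, 11930508 to 12038683), had 82.0, 147 and 128 TPM at E16 and 90.7, 171 and 120 TPM at E18. The 2 ranges overlapped over most of their length. The log2 fold change of Grb10 was 0.09 ± 0.29 (limma adjusted p = 0.905), and its sign turned with the scaling and with the libraries used.

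**Figure D2:**
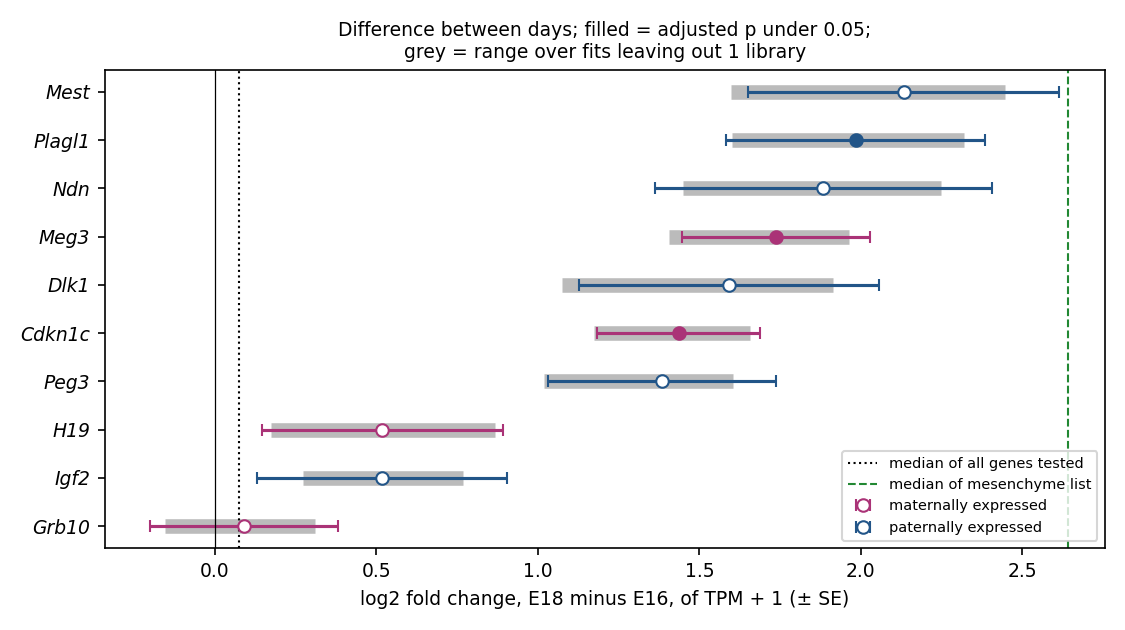
Log2 fold change of each gene, E18 minus E16, with its standard error; filled points passed the test, grey bands show the range over the 6 fits that leave out 1 library, and vertical lines show the median of all genes tested and of the mesenchyme list. Mest, Plagl1, Ndn, Meg3, Dlk1, Cdkn1c and Peg3 lie between 1.38 and 2.13, below the mesenchyme median of 2.64, and H19, Igf2 and Grb10 lie between 0.09 and 0.52.

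RefSeq promoters (GRCm38.p6) were found for 8 of the 10 genes, not for H19 and Cdkn1c, 15 start sites in all. The 250 bases before a start are shown for Plagl1 and Meg3, which rose, for Peg3, whose days did not overlap, and for Grb10, whose days overlapped. Mest, Dlk1 and Ndn also had days that did not overlap, and their windows are not shown. Capitals mark matches, on either strand, to the Sp1 box GGGCGG, the TATA box TATAAA, the PLAGL1 motif GGGGCCCC or the YY1 motif AANATGGC. All start at the 5′ end, and the start site follows the last base.
Plagl1, chr10:13090582-13090831, plus strand: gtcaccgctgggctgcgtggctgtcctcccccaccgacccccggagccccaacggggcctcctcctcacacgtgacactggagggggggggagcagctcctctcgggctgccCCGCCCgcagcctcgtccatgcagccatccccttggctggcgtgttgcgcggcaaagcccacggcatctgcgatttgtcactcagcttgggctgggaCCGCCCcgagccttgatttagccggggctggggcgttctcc
Meg3, chr12:109540746-109540995, plus strand: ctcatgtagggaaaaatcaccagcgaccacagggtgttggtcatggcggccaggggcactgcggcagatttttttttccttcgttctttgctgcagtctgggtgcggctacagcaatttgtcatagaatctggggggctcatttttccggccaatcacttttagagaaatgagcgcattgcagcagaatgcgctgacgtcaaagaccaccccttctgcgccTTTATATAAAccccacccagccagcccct
Peg3, chr7:6730420-6730669, minus strand: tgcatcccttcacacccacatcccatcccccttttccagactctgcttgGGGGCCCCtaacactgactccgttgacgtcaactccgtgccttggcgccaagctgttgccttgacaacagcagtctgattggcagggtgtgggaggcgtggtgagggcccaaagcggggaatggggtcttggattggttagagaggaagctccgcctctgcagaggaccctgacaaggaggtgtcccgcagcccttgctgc
Grb10, chr11:12037421-12037670, minus strand: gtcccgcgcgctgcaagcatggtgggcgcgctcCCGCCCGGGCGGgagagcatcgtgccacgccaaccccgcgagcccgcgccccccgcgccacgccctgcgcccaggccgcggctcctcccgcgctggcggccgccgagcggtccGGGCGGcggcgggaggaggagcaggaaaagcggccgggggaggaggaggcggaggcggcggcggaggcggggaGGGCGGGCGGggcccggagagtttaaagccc
The Plagl1 window held 2 Sp1 boxes and the Grb10 window 5, some of which overlap, where 32.7% of 32851 windows of the same length hold at least 1. Meg3 held 2 overlapping TATA boxes, 1 on each strand, against 12.4% of windows with any. Peg3 held 1 PLAGL1 motif, found in 0.889% of windows, and it was the only one of the 15 windows of these genes with a match. No YY1 match was found in these 4 windows, against 3.91% of windows. CpG dinucleotides numbered 19, 10, 8 and 40 in Plagl1, Meg3, Peg3 and Grb10, against a median of 6 over all windows. The other RefSeq start of Grb10 had 8 CpG dinucleotides and no Sp1 box before it, and the other start of Meg3 had 0 and no TATA box. These matches are a description of letters and not of binding.

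Paternally and maternally expressed genes were also set against each other within each library. The mean of log2(TPM + 1) over the 6 paternally expressed genes minus that over the 4 maternally expressed genes was −2.05, −2.17 and −1.81 at E16 and −1.42, −1.01 and −1.70 at E18. The days did not overlap, and E18 replicate C came closest to E16. No test was made of this difference, because the genes were chosen with results known. Without both B libraries the median log2 fold changes were 1.35 for the paternally and 1.01 for the maternally expressed genes. Within the maternal class, Meg3 and Cdkn1c lay at 1.74 and 1.44, and H19 and Grb10 at 0.52 and 0.09.

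In the pairs of neighbours that share a control region and are expressed from opposite alleles, the ratio did not differ between the days beyond its spread. The TPM ratio of Meg3 to Dlk1 was 0.362, 0.230 and 0.271 at E16 and 0.363, 0.248 and 0.364 at E18. In log2 units of TPM + 1 the mean ratio was −1.78 ± 0.33 and −1.63 ± 0.32 (SD, n = 3 each), a difference of 0.15 (exact 2-sided permutation p = 0.70). The TPM ratio of H19 to Igf2 was 243, 268 and 179 at E16 and 161, 177 and 253 at E18. For H19 to Igf2 the mean log2 ratio was 7.17 ± 0.36 and 7.17 ± 0.21, a difference of 0.0015 (exact 2-sided permutation p = 1), with the uncertainty of Igf2 given above. These are the 2 pairs compared, p adjusted over both is 1 in each case, and 3 libraries against 3 cannot give p below 0.1.

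Other imprinted genes were taken from a list of 46, of which 34 were tested. Of these 2 were called, both higher (the paternally expressed noncoding RNA Airn and the maternally expressed zinc finger gene Zim1), against 3.08% of all genes. The median log2 fold change was 0.24 for 17 genes listed as paternally expressed and 0.47 for 17 listed as maternally expressed. These parental classes are those of the list, and which allele the sorted cells express was not measured.

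In the Dlk1-Meg3 cluster on chromosome 12, each of the 5 genes tested was higher in every E18 library than in any E16 library, as were 18.4% of all genes tested, and 1 of the 5, Meg3, was called, against 3.47% of all genes. Rtl1, a retrotransposon-derived gene expressed from the paternal allele, went from 9.70, 7.60 and 13.1 TPM at E16 to 20.95, 48.7 and 24.6 at E18. The maternally expressed noncoding RNAs Rian and Mirg, hosts of snoRNAs and miRNAs, had log2 fold changes of 1.35 ± 0.33 and 1.36 ± 0.37, beside 1.48 ± 0.34 for Rtl1, and none of these 3 passed (limma adjusted p = 0.0667, 0.0895 and 0.0624 for Rian, Mirg and Rtl1). Fold changes of the 5 genes lay between 1.35 and 1.74, with genes of both parental classes among them. Next to Peg3, the maternally expressed Zim1 rose by 2.16 ± 0.33 (limma adjusted p = 0.0326), with 4.13, 4.21 and 7.70 TPM at E16 and 22.4, 39.1 and 21.02 at E18.

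In the Kcnq1 cluster, which holds Cdkn1c, 6 of 10 listed genes were tested and Cdkn1c was the 1 called, against 3.47% of all genes. In 3 of the 6 (Cdkn1c, Cd81 and Osbpl5) every E18 library was above every E16 library, as in 18.4% of all genes tested. Cd81, a tetraspanin gene, had a log2 fold change of 0.65 ± 0.15 and did not pass (limma adjusted p = 0.0627). Kcnq1ot1, the paternally expressed antisense RNA that silences the cluster in cis, had 24.5, 11.5 and 18.7 TPM at E16 and 19.7, 20.9 and 19.7 at E18. Its days overlapped, and its log2 fold change was 0.19 ± 0.27 (limma adjusted p = 0.749). Tssc4 and Tspan32 lay at −0.03 ± 0.17 and −0.08 ± 0.12, whereas the lipid transfer protein gene Osbpl5, at 1.102, 1.32 and 3.71 TPM on E16 and 10.8, 20.7 and 6.08 TPM on E18, had days that did not overlap and a limma adjusted p of 0.0662. Phlda2, a growth restrainer of the placenta, was at or below 0.784 TPM in each library.

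Around Ndn the values went apart. Snrpn, which encodes a splicing protein and is also paternally expressed, was lower in every E18 library, with 5.63, 8.44 and 8.58 TPM at E16 and 1.99, 1.93 and 0.251 at E18. Its log2 value, −1.92 ± 0.42, missed the threshold (limma, adjusted p = 0.0556), and another gene on its strand covers 27.3% of its exons. Atp10a was at 1.83 ± 0.51 (limma adjusted p = 0.0917), and Ube3a, a ubiquitin ligase gene imprinted mainly in neurons, at −0.05 ± 0.18. Airn, the noncoding RNA that overlaps Igf2r on the opposite strand, rose by 1.46 ± 0.29 (limma adjusted p = 0.0456). Igf2r, the maternally expressed receptor that clears IGF2, stood at 166, 181 and 157 TPM at E16 and 232, 333 and 235 TPM at E18, without overlap, and did not pass (0.64 ± 0.17; limma adjusted p = 0.0880).

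**Figure D3:**
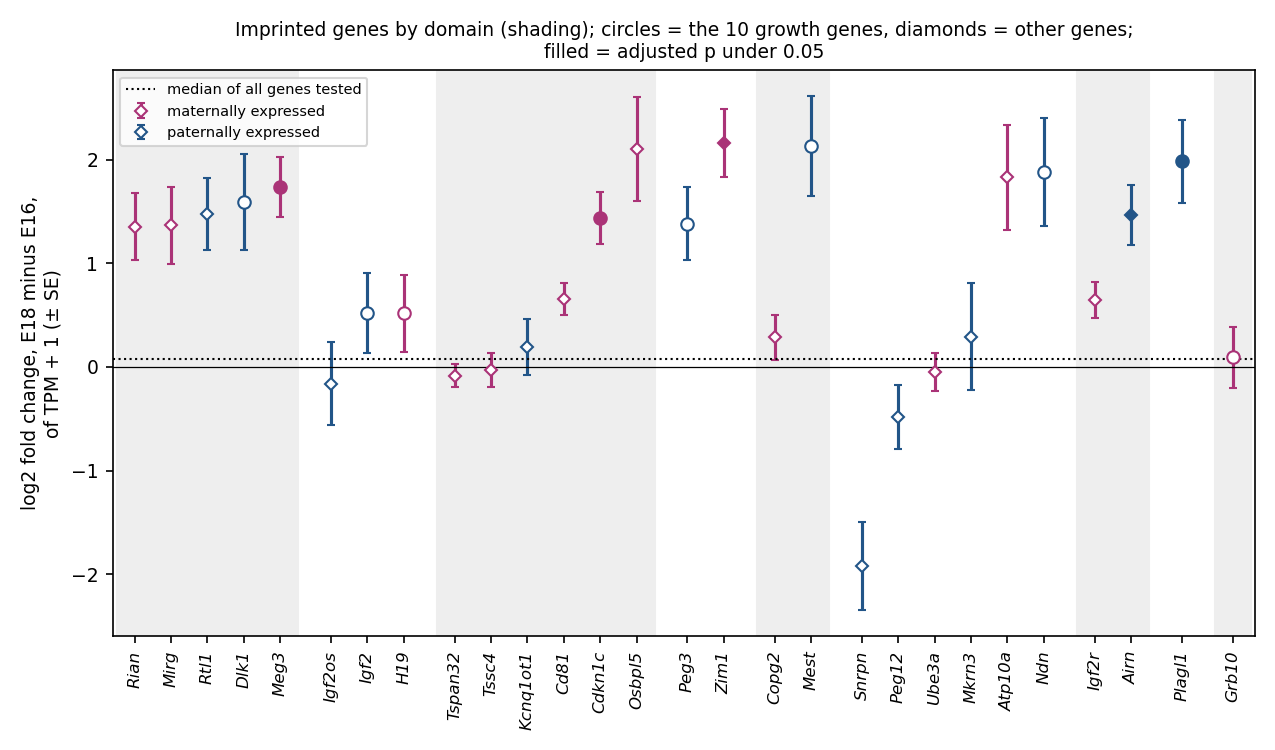
Log2 fold change, E18 minus E16, with standard error, of the imprinted genes tested in each cluster (grey and white bands); circles are the 10 growth genes, diamonds other imprinted genes, and filled points passed the test. All 5 genes of the Dlk1-Meg3 cluster at left lie between 1.35 and 1.74, whereas in the Ndn cluster values run from −1.92 to 1.88.

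Igf2 acts through a pathway whose other genes were taken from a list of 17, all tested. Of these 5 were called higher and 1 lower, against 3.08% and 0.387% of all genes, and the median log2 fold change was 1.18. Igf1, the sister ligand, rose from 1.17, 2.17 and 2.25 TPM at E16 to 8.35, 13.8 and 7.58 at E18 (1.91 ± 0.34; limma adjusted p = 0.0375). The binding proteins Igfbp3, Igfbp5 and Igfbp7 rose by 2.35 ± 0.43, 3.001 ± 0.24 and 3.04 ± 0.47, and Pappa, a protease that cleaves such proteins, by 1.70 ± 0.34, from at most 0.280 TPM at E16. Igfbp1, a binding protein secreted by the liver, was lower in every E18 library, with 12.6, 29.9 and 6.08 TPM at E16 and 0.891, 5.88 and 2.49 at E18. It did not pass (−2.01 ± 0.65; limma adjusted p = 0.133). The mRNA-binding protein gene Igf2bp1, whose product binds Igf2 transcripts, fell by 2.45 on the log2 scale, with 49.8, 39.2 and 56.9 TPM at E16 and 11.1, 6.33 and 7.20 at E18 (limma adjusted p = 0.0194). The receptors Igf1r and Insr had values of 0.03 ± 0.15 and −0.01 ± 0.19, with overlapping days.

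Cdkn1c was set beside 14 cyclins, kinases and inhibitors, of which 13 were tested and 1, the inhibitor Cdkn2d, was called (1.74 ± 0.31; limma adjusted p = 0.0383), against 3.08% of all genes called higher. Cdkn1a and Cdkn1b, the sister inhibitors p21 and p27, had values of 0.82 ± 0.35 and 0.34 ± 0.19 and did not pass (limma adjusted p = 0.241 and 0.369). The median of the 13 was 0.34.

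The values of the growth genes were also set beside the mesenchyme markers, library by library. E16 replicate A, with the lowest mesenchyme sum (470 TPM), had the lowest value of its day for 9 of the 10 genes, all except Mest. E18 replicate B, with the highest mesenchyme sum (6647 TPM), had the highest value of its day for all 10. At E16 the order was not that of the markers: replicate C had the highest mesenchyme sum but was highest for 4 of the 10 genes, and replicate B for 6. E18 replicate B also had the highest sum of the 12 immediate early and heat shock genes, 2541 TPM, against 820 and 1417 in the other E18 libraries and 381 to 584 at E16. Set against the mesenchyme sum, the 6 paternally expressed genes together were 25.5%, 34.2% and 24.98% of it at E16 and 14.3%, 16.3% and 15.2% at E18. The mesenchyme sum, the divisor here, is itself higher at E18, so these shares say nothing particular to the growth genes. In a fit with the mesenchyme score (the mean centred log2 value of the list) as covariate, 0 of all genes were called (632 at unadjusted p under 0.05), Meg3 and Cdkn1c were at 0.05 ± 0.52 and 0.18 ± 0.56, and the other 8 were below 0. That score ran from −1.80 to −0.84 at E16 and from 0.77 to 2.13 at E18, so the score by itself separated the days, and the effects of day and score cannot be told apart. With the hepatocyte score as covariate all 10 fold changes were above 0, from 0.85 to 3.08, and 0 genes were called (1678 at unadjusted p under 0.05). The hepatocyte score ran from 0.61 to 2.42 at E16 and from −1.96 to −0.89 at E18. It too separated the days, so the effects of day and hepatocyte score cannot be told apart either. In these sorted bulk samples, fewer cells of a type and less RNA per cell cannot be told apart.

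**Figure D4:**
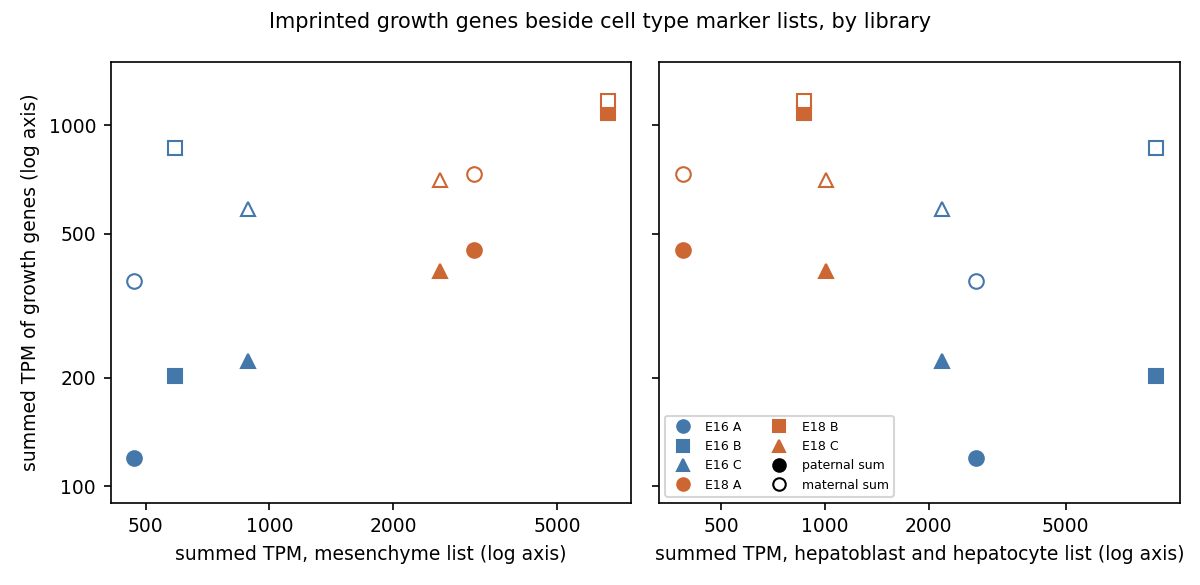
Summed TPM of the 6 paternally expressed genes (filled) and the 4 maternally expressed genes (open) in each library, against the summed TPM of 12 mesenchyme markers (left) and 12 hepatoblast and hepatocyte markers (right), on log axes. E18 replicate B is at the top right of the left panel with 6647 TPM of mesenchyme markers, and the E16 libraries lie between 470 and 889.

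For each growth gene, the 3 named genes with the nearest profile over the 6 libraries were found by the root mean square distance between centred log2(TPM + 1) values. Nearest to Meg3 were Syne2 (0.0406), Myof (0.0713) and Cd63 (0.0743), and nearest to Plagl1 were Kirrel (0.0860), Cdon (0.0907) and the collagen chaperone gene Serpinh1 (0.0958). Mest lay nearest to Itga9, Tril and Cyp1b1, Dlk1 to Ndrg2, Rasl11a and Sec24d, and Ndn to Gstm2, Igfbp4 and Cpxm1. Peg3 lay nearest to Cc2d2a, Smarca1 and Sbf2, and Cdkn1c to Snx24, Fam171a1 and Tmem252. For the genes with overlapping days the nearest were Fignl2, Pnrc1 and Enpp5 (H19), Ets2, Idua and Cers6 (Grb10), and Hexim1, Tob2 and Ikbke (Igf2). Within the 10, Mest and Plagl1 were closest (0.232), then Igf2 and H19 (0.240) and Dlk1 and Ndn (0.249). Among these neighbours, mean E16 levels were 0.249 TPM for Tmem252, 0.483 for Cyp1b1, 0.550 for Tril, 0.702 for Fignl2 and 0.807 for Myof. At such levels the added 1 TPM shrinks a change, so near profiles need not mean like fold changes of TPM. Distances from Igf2 carry the uncertainty of Igf2 given above. These distances are a description.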

How the data were processed

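The authors deposited 1 table of TPM, a length-normalized abundance, for 54532 genes in 6 libraries. Per the submitters' processing notes, HTSeq 0.5.4p3, Bowtie, HISAT2 2.1.0 and FastQC 0.11.7 were used with build mm10; no role or order is given. No source used here gives the annotation release, the strand setting or how TPM was computed. Symbols were found for 54409 identifiers and not for 123. Gene positions (counted from 1) and exon lengths are those of GENCODE M21, whose assembly GRCm38 is that of mm10.

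The days were compared on the log2(TPM + 1) scale in R 4.3.3 with limma 3.58.1 (intensity trend, moderated variances). Its 2-sided p-values were adjusted by the Benjamini-Hochberg method over 17824 genes with at least 1 TPM in at least 3 libraries. Fold changes on this scale understate those of low genes. Ratios of neighbours were compared by exact permutation. Named were the 10 members, the 3 genes nearest to each (predicted gene models and small RNAs left out), and the called genes of each pathway list; cluster genes, single markers, Igf1r, Insr, Igfbp1, Cdkn1a and Cdkn1b fall outside this rule and were named after their values were seen. The members, lists and tests were chosen with earlier results of these data known. Ahsp, 1 erythroid marker, was unmatched. Alternatives were other pseudocounts, filters, scalings and weights, covariates, the replicate letter as a block and leaving out libraries; voom on recovered reads and leaving out both B libraries were added after seeing the data. Figures were drawn with Matplotlib 3.10.9.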

Additional observations from a re-analysis of the deposited data

How the results depend on the processing

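Calls are few and rest on 3 libraries a day. Meg3 kept its call in 11 of 21 alternatives, Cdkn1c in 9 of 21 and Plagl1 in 3 of 21; the cause of the losses was not tested. Members called, 3 of 10 as reported, became 1 without the intensity trend and 0 without a filter on low values, with the hepatocyte score, with the mesenchyme score, with the replicate block and without both B libraries. They became 7 with array weights and with voom on recovered reads (Dlk1, Mest, Ndn and Peg3 added), against 15.7% and 7.25% of all genes called higher in those fits. The array weights rest mainly on E16 replicate C (3.76) and E18 replicate A (3.62), against 0.484 to 0.605 for the other 4 libraries. Leaving out 1 library gave 0 to 1. Calls over all genes, 618, became 347 with a pseudocount of 5, 399 with quantile normalization, 406 with a minimum of 5 TPM, 4316 with array weights, 1469 with voom on recovered reads, and 0 without a filter on low values (4571 at unadjusted p under 0.05), with the hepatocyte or mesenchyme score (1678 and 632), with the replicate block (3195) and without both B libraries (2846). Leaving out 1 library gave 0 to 664. Quantile normalization moved the median of all genes from 0.07 to −0.08, and the share of calls that were higher, 88.8%, was 78.7% with it and 64.8% with array weights. Whether the letters pair the libraries is not stated in the labels. Deviations from the mean of the day correlated at 0.102, −0.139 and −0.117 for same-lettered libraries A, B and C. For libraries of unlike letters the correlations ran from −0.147 to 0.220. With 3 libraries a day these values cannot decide whether the libraries are paired.

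With the mesenchyme score as covariate the log2 fold change was −1.19 for Igf2, −1.25 for Dlk1, −0.99 for Peg3, −0.96 for Mest, −0.70 for Plagl1, −0.92 for Ndn, −1.09 for H19 and −1.36 for Grb10. Grb10 was also below 0 with median-of-ratios scaling (−0.021), with array weights (−0.29), without E16 replicate A (−0.15) and without E18 replicate B (−0.15), and ran up to 0.31 when another library was left out. In the 19 alternatives without a covariate, or 18 for Igf2, which does not reach 5 TPM, the other 9 genes stayed above 0. The difference in the log2 ratio of H19 to Igf2 was −0.19 with a pseudocount of 0.1 and 0.27 with a pseudocount of 5, so its sign depends on the pseudocount. When 1 library was left out it ran from −0.10 to 0.21, and that of Meg3 to Dlk1 from −0.0047 to 0.33.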
